A study of Mus musculus with 8 samples.

Results

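The genes described here are 37 mouse genes of DNA replication and nucleotide synthesis, chosen by name with a rule that uses no measured value, from a list drawn up with earlier results of these data known. They are the 6 subunits of the MCM2-7 helicase, 5 licensing factors (Orc1, Orc2, Orc6, Cdc6, Cdt1), 6 origin firing factors (Mcm10, Cdc45, Gins1 to Gins4), 6 polymerase and primase subunits (Pola1, Pola2, Prim1, Prim2, Pold1, Pole), the clamp Pcna with its 5 loader subunits (Rfc1 to Rfc5), 4 genes of single-stranded DNA and Okazaki fragments (Rpa1, Rpa2, Fen1, Lig1) and 4 genes of deoxynucleotide supply (Rrm1, Rrm2, Tyms, Tk1). All 37 reached a mean of 30 counts in each assay, among 10813 protein-coding genes measured in RNA-seq, 9169 in ribosome footprints and 9097 in both. The cells were KRPC-A, a tumour cell line of C57BL/6 mouse origin made from genetically engineered pancreatic tumours, either wild type for Gcn2 (WT) or knocked out for it (KO). Gcn2 is a kinase that senses uncharged tRNA and phosphorylates the initiation factor eIF2. Each genotype was held for 1 h in amino-acid-replete or in leucine-free medium, and each of the 4 combinations gave 1 RNA-seq and 1 ribosome profiling library, 8 libraries in all. The sources used here do not give the method of the knockout or its derivation from a clone or a pool of cells.

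DNA replication starts when the origin recognition complex, with Cdc6 and Cdt1, loads the MCM2-7 helicase onto DNA in G1. Cdc45 and GINS then join the helicase at the start of S phase to unwind the fork, primase and polymerase alpha lay down primers, polymerases delta and epsilon extend them on the sliding clamp PCNA that replication factor C loads, and Fen1 and Lig1 finish the lagging strand. Ribonucleotide reductase, thymidylate synthase and thymidine kinase supply the deoxynucleotides, and many of these genes are known targets of E2F transcription factors in cycling cells.

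With 1 library per group there was no spread between cultures, so nothing below is a test of the conditions and no p-value was computed. Levels are CPM, counts scaled to a common library size within each assay. A comparison of a pair of libraries is a log2 ratio with a 95% interval made from the counts of single libraries, which covers counting error only. PCR copies of a molecule could not be told from other reads, so the intervals may be too narrow even for that error. A gene is said to pass the 1.5-fold rule, or the 2-fold rule, when its ratio reached that size and its interval excluded 0. A change common to all mRNAs would not appear in such scaled counts, and in bulk samples fewer cells of a type and less RNA per cell cannot be told apart.

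Counted reads ran from 49136610 to 60680169 in the RNA-seq libraries and from 2671491 (WT, leucine-free) to 9993211 (WT, replete) in the footprint libraries. The Gcn2 gene, Eif2ak4, gave 85.7 and 69.7 CPM of RNA in the WT libraries against 13.6 and 16.7 CPM in the KO libraries, and 60.2 and 65.2 against 7.26 and 16.2 CPM in footprints, each in replete and leucine-free medium in turn. Acinar markers (10 genes, 0 to 1.25 summed CPM) and immune and endothelial markers (9 genes, 0.339 to 2.01) were near 0 in every library, and the epithelial marker Epcam was at 0 in all 4 RNA-seq libraries. Summed RNA of 11 duct and epithelial markers differed between the libraries, at 248 and 337 CPM in WT and 499 and 1122 CPM in KO, replete then leucine-free, mostly through Sox9 and Krt18. In footprints the same sums were 402, 427, 720 and 891 CPM. Summed fibroblast markers (10 genes) were at 2800, 3502, 2786 and 3055 CPM in RNA, of which Vim gave 1208, 1539, 1086 and 1079 CPM. In footprints the sums were 8400, 7061, 9126 and 5935 CPM, mostly Vim and lowest in the KO leucine-free library. The part of these differences in the values below was not tested.

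Some of the 37 genes overlap others, and reads that hit 2 genes were not counted. Of the 37, 14 share exon bases with another gene, and 3 share over 20%: Fen1 (84.2%), Gins2 (67.3%) and Orc2 (29.8%), each with a gene on the opposite strand. Fen1 had the fewest counts of all members in both assays, a mean of 382 in RNA-seq and 94.3 in footprints, so its values are uncertain. Pcna and Tyms have listed processed copies (Pcna-ps1, Pcna-ps2, Tyms-ps) that could take reads from them. The members had more counts than most genes, with a median of 850 footprint counts per library against 255 over all measured genes, so their intervals were narrower and excluded 0 more easily.

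The known link to E2F was looked for in the promoters. RefSeq promoters (build GRCm38.p6, 250 bases before to 50 after each start) were found for 30 of the 37 genes. The 250 bases before each start were searched on both strands for 4 E2F-type motifs of 8 bases, TTTCCCGC, TTTGGCGC, TTTCGCGC and TTTGCCGC; TTTCGCGC on one strand and TTTGGCGC on the other can overlap in their GCGC. Of the 30 genes, 8 (26.7%) held a match: Mcm5, Mcm6, Mcm7, Orc1, Cdc6, Gins3, Pola1 and Rfc3. The share was 2.68% among 16808 protein-coding genes with a promoter (451 genes). A match is a description of the letters and not a shown binding site. The 4 windows printed here lie outside the annotated gene and are from the helicase and the polymerase, whose footprint values are described below; capitals mark the motif or the overlapping pair.

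Mcm5, chr8:75109340-75109383, plus strand, first base of the motif 153 bases before the start: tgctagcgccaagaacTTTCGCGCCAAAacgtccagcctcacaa
Mcm6, chr1:128359788-128359831, minus strand, 110 bases before the start: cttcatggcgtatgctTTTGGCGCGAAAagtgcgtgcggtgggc
Mcm6, chr1:128359729-128359768, minus strand, 47 bases before the start: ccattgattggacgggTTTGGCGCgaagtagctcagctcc
Pola1, chrX:93632270-93632309, minus strand, 138 bases before the start: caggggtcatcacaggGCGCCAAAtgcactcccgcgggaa

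The Mcm5 window and the upper Mcm6 window hold the same overlapping pair read from opposite strands, while the Pola1 window holds a single TTTGGCGC on the reverse strand.

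Most replication mRNAs had fewer ribosome footprints in leucine-free than in replete medium in KO cells, while in WT cells the list's median stood near 0. In KO cells the median footprint ratio of leucine-free over replete medium over the 37 genes was -0.27, with 30 of 37 below 0. The median of all measured genes was 0.00, with 50.5% below 0, and that of genes with like footprint counts was -0.05, with 57.1% below 0. For 23 members the interval lay below 0, where 22.9% of all measured genes and 34.2% of 4136 genes with like footprint counts did. In WT cells the median footprint ratio was 0.02, with 21 members above 0 and 16 below, near the median of 0.01 for all genes. Intervals lay above 0 for 8 members (14.3% of all genes, 17.5% of those with like counts) and below 0 for 5 (15.2% and 22.9%).

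The mRNA levels gave another picture, but RNA and footprint leucine ratios agreed little across genes at large. Over 9097 genes Spearman's rho between them was -0.09 in WT and 0.06 in KO, with 4231 and 4529 genes of the same sign. Over the 37 members rho was -0.15 and 0.33, with 21 of the same sign in each genotype. Gaps between RNA and footprints in single members below are thus not particular to the list. In WT cells the median RNA ratio of the members was 0.13 against 0.00 for all genes, 27 of 37 were above 0, and 24 had an interval above 0, where 32% of all genes and 34.8% of 5748 genes with like RNA counts did. In KO cells the median RNA ratio was -0.01, with 12 intervals above 0 (31.4% of all genes) and 15 below (30.7%). In the WT RNA comparison shorter genes had higher ratios across the measured genes (Spearman's rho -0.38 with exonic length, a description across genes, which are not independent replicates), and the members' exons were shorter in the median (4097 against 4719 bases). With that length trend removed, the members' median in WT RNA stayed above 0, within 0.11 to 0.16 over all settings tried.

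**Figure D1:**
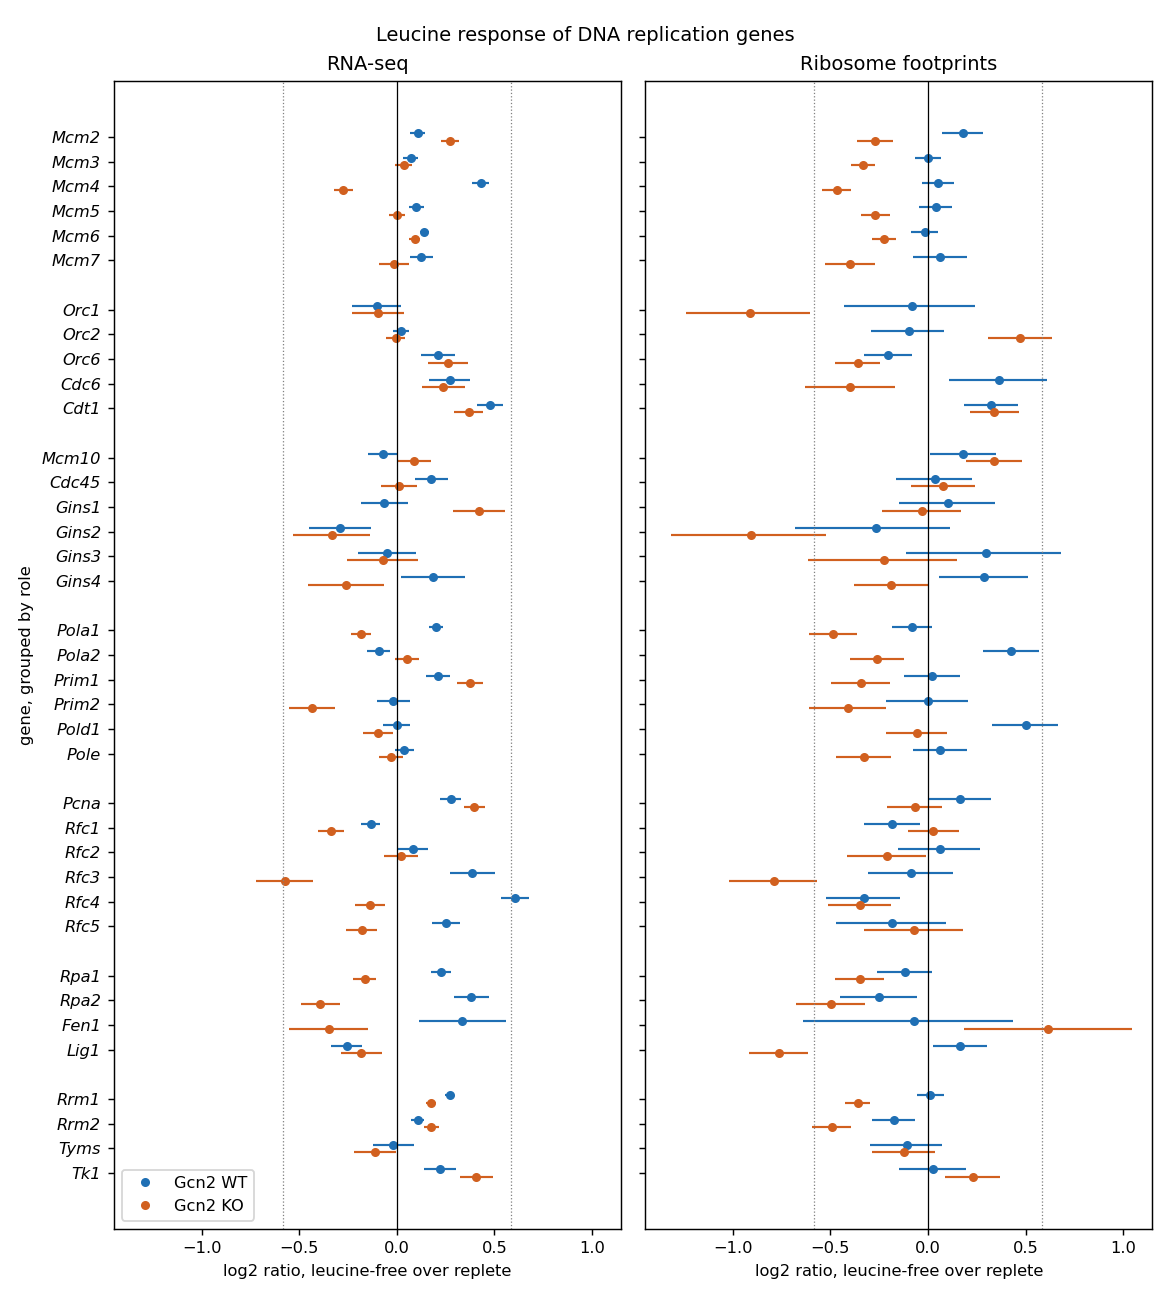
Log2 ratios of leucine-free over replete medium for the 37 genes, grouped by role, in RNA-seq (left) and ribosome footprints (right); points are 1 pair of libraries each, bars are 95% counting intervals, and dotted lines mark a 1.5-fold difference. In footprints most KO points (30 of 37) lie left of 0, while the WT points lie on both sides (21 above, 16 below).

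Single differences were small. In RNA-seq no member passed the 2-fold rule, which 1.71% (leucine, WT), 3.16% (leucine, KO), 6.86% (KO over WT, replete), 8.39% (KO over WT, leucine-free) and 4.67% (WT minus KO) of all genes did. In footprints no member passed it in the comparisons where 1.46%, 2.09%, 3.03% and 4.6% of all genes did (leucine in WT and KO, KO over WT in replete medium, WT minus KO), and Pola1 did in KO over WT without leucine. By the 1.5-fold rule the footprint ratio in KO cells was lower for 4 members, Orc1, Gins2, Rfc3 and Lig1 (4.22% of all genes), and higher for 1, Fen1 (6.89%). No member passed it in WT footprints (4.1% of all genes higher, 2.91% lower). In WT RNA only Rfc4 passed, as higher (3.51%), and in KO RNA no member did (4.94% higher, 3.98% lower). The quartiles of the members' KO footprint ratios were -0.40 and -0.07.

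The difference of the leucine ratios, WT minus KO, had a footprint median of 0.32 over the members (0.02 over all genes), and 29 of 37 were above 0. Intervals lay above 0 for 22 members (19% of all genes, 27% of those with like counts) and below 0 for 3 (16.7% and 21.5%). By the 1.5-fold rule 6 were higher, Orc1, Cdc6, Gins2, Pola2, Rfc3 and Lig1 (6.78%), and 1 was lower, Fen1 (8.41%). In RNA-seq the median difference was 0.07, and 5 members passed as higher: Mcm4, Rfc3, Rfc4, Rpa2 and Fen1 (6.15%). The KO leucine-free footprint library stood lowest of the 4 footprint libraries for 26 of the 37 genes, so the KO leucine ratio, the WT minus KO difference and the KO over WT ratio without leucine all rest on that 1 library. The WT leucine-free RNA library stood highest of its 4 for 18 genes. The shares of all measured genes for which these libraries stand lowest or highest were not determined, so neither count is shown to be particular to the members.

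**Figure D2:**
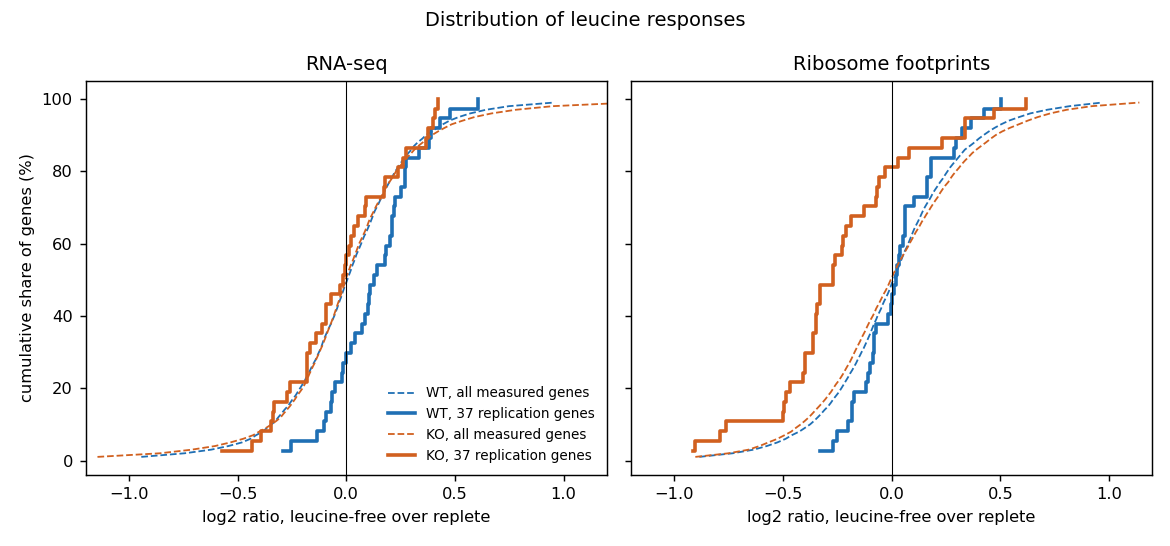
Cumulative share of genes by log2 ratio of leucine-free over replete medium in RNA-seq (left) and footprints (right), for all measured genes (dashed) and the 37 replication genes (solid), in WT and KO cells. The solid KO curve for footprints lies left of the others, with a median of -0.27, and the solid WT curve for RNA-seq lies right, with a median of 0.13.

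The MCM2-7 subunits, which form the ring that unwinds DNA, had the narrowest spread of KO footprint ratios among the 7 role groups (SD 0.09). High counts reduce counting error, and Mcm3 had the highest mean footprint count of all members (5060). The part of this in the narrow spread was not tested. In footprints of KO cells all 6 MCM2-7 subunits were lower without leucine, each with an interval below 0, from -0.47 (Mcm4) to -0.22 (Mcm6). Such intervals were seen for 22.9% of all genes and 34.2% of those with like counts. In WT footprints the 6 ratios ran from -0.02 (Mcm6) to 0.18 (Mcm2), and only that of Mcm2 had an interval off 0. In WT RNA all 6 were above 0 with intervals that excluded it, from 0.07 (Mcm3) to 0.43 (Mcm4). Intervals above 0 in WT RNA were seen for 32% of all genes and 34.8% of those with like counts. KO RNA ratios of the 6 ran from -0.27 (Mcm4) to 0.27 (Mcm2). Against WT, the KO footprint levels of all 6 were above 0 in replete medium (0.04 to 0.17) and all 6 were below 0 in leucine-free medium (-0.45 to -0.09). Runs of 4 values here and below give the WT libraries before the KO libraries, each replete first and leucine-free second. Mcm4 had 180, 242, 217 and 179 CPM of RNA. Its footprints were at 646, 669, 677 and 489 CPM. Its RNA was thus highest in the WT leucine-free library and its footprints stood together in 3 libraries and lower in the KO leucine-free one. Per kilobase of exon, where levels of different genes can be set side by side, Mcm7 had the lowest RNA of the 6 (24.4 CPM per kb in WT replete cells) and Mcm6 the highest (122 CPM per kb). In footprints Mcm7 and Mcm2 (51.0 CPM per kb) were lowest and Mcm3 highest (244 CPM per kb); over exon that no other gene shares, Mcm7 stood above Mcm2 at 57.2. The subunits, which assemble in equal numbers, so differed 5.01-fold in RNA and 4.87-fold in footprints per kb of exon in that pair of libraries, or 4.38-fold and 4.78-fold over unshared exon. Exonic length includes untranslated parts, which footprints hardly cover.

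Among the licensing factors, the Orc1 subunit of the origin recognition complex had the lowest KO leucine ratio of all 37 genes in footprints. Its footprint levels were 41.4, 38.9, 49.4 and 26.2 CPM, and its RNA was nearly flat at 26.3, 24.5, 28.0 and 26.2 CPM. The KO ratio was -0.91 (-1.24 to -0.60) in footprints and -0.09 (-0.23 to 0.04) in RNA, and the WT footprint ratio was -0.08 (-0.43 to 0.24). Cdc6, the ATPase that joins ORC to load the helicase, had opposite footprint ratios in the genotypes, 0.36 (0.11 to 0.61) in WT and -0.40 (-0.63 to -0.17) in KO, on RNA ratios of 0.27 and 0.24. It had 57.9, 74.4, 71.9 and 54.5 CPM of footprints and 33.9, 40.9, 36.3 and 42.8 CPM of RNA. Cdt1, the partner of Cdc6 that brings the helicase, was among the 7 members not below 0 in KO footprints: it was higher without leucine in both genotypes and both assays, by 0.48 and 0.37 in RNA and 0.32 and 0.34 in footprints (WT, then KO). Orc6 was higher in RNA (0.21 and 0.26) and lower in footprints (-0.20 and -0.36) in both genotypes. Orc2 had a higher footprint ratio in KO cells, 0.47 (0.31 to 0.64), with RNA at -0.01, but 29.8% of its exon bases are shared with Nif3l1.

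The firing factors were mixed. Gins2, one of the 4 subunits of GINS, had footprints at 33.4, 27.6, 32.3 and 17.2 CPM and RNA at 17.3, 14.1, 14.4 and 11.4 CPM, lowest in the KO leucine-free library in both assays. Its KO leucine ratio in footprints was -0.91 (-1.32 to -0.52), on the small part of its exons that no other gene shares. Gins4 had 73.0, 89.0, 94.9 and 83.2 CPM of footprints, with the WT replete library lowest, and 14.0, 15.9, 14.1 and 11.8 CPM of RNA. Gins1 had the highest KO RNA ratio of all members, 0.42 (0.29 to 0.55), from 28.2, 27.0, 23.6 and 31.6 CPM, while its footprints stood at 68.6, 73.6, 77.6 and 75.8 CPM. The GINS subunits thus did not share a direction in RNA of KO cells. Mcm10, which binds the helicase at firing, had footprints higher without leucine in both genotypes, by 0.18 in WT and 0.34 in KO. Cdc45, the helicase cofactor, had ratios of 0.03 and 0.08 in footprints, each with an interval that included 0, and Gins3 had intervals that included 0 in all 4 leucine comparisons.

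All 6 polymerase and primase subunits were below 0 in KO footprints without leucine, from -0.49 (Pola1) to -0.06 (Pold1). Of the intervals 5 excluded 0, where 22.9% of all genes and 34.2% of those with like counts had one below 0. All 6 were also lower in KO than in WT cells in leucine-free footprints, from -1.10 (Pola1) to -0.37 (Pold1), with all 6 intervals below 0. For that comparison 24.2% of all genes and 34.2% of those with like counts had an interval below 0. Pola2, the regulatory subunit of polymerase alpha, had footprints at 168, 225, 186 and 155 CPM on RNA at 112, 105, 128 and 132 CPM. The footprints were highest in the WT leucine-free library and lowest in the KO leucine-free library, and the RNA did not follow that order. Pold1, the catalytic subunit of polymerase delta, had the highest WT footprint ratio of all members, 0.50 (0.33 to 0.67), with footprints at 117, 166, 134 and 128 CPM and RNA at 83.9, 83.9, 81.8 and 76.6 CPM. Prim1, the catalytic primase subunit, had RNA higher without leucine in both genotypes (98.8, 114, 97.8 and 127 CPM), while its footprints were 209, 212, 162 and 128 CPM. Its KO libraries therefore held the lowest footprints and, without leucine, the highest RNA. Prim2, the large primase subunit, had RNA at 55.0, 54.4, 40.0 and 29.6 CPM, lowest in both KO libraries, and footprints at 101, 100, 98.0 and 73.7 CPM.

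**Figure D3:**
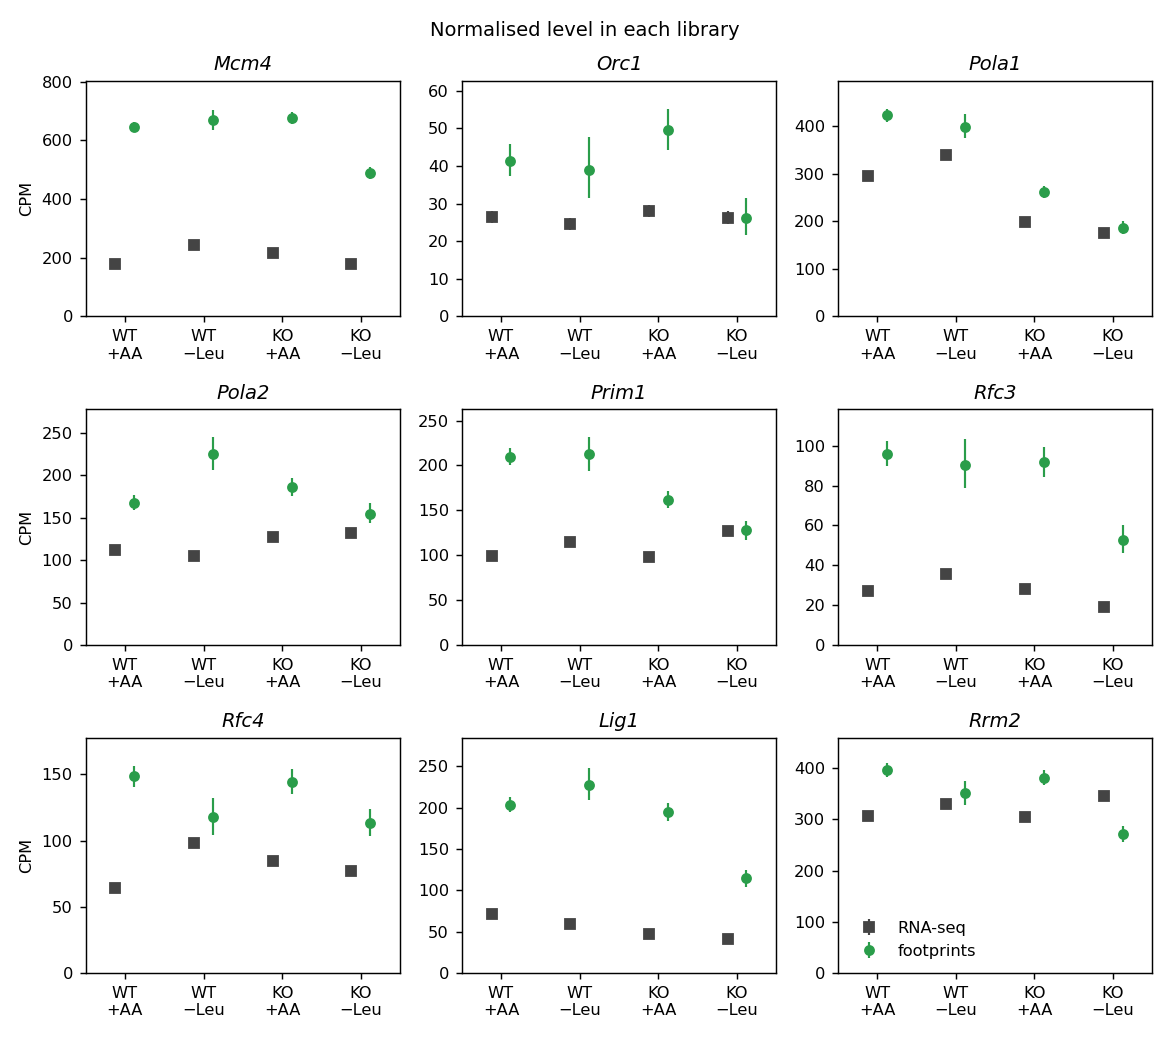
Normalised level (CPM, axis from 0) of 9 of the genes in each of the 8 libraries, RNA-seq as squares and footprints as circles, with exact 95% Poisson intervals; +AA is replete and −Leu leucine-free medium. The 9 genes are a selection, and in footprints the KO leucine-free library is lowest in each of their panels. Over all 37 genes that library is lowest in footprints for 26. The KO replete library is lowest for 6 and the WT replete library for 5. The same shares over all measured genes were not determined. The RNA-seq order differs from gene to gene.

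Among the clamp and its loader, Rfc1, Rfc3 and Rfc4 passed the 1.5-fold rule in RNA and Rfc3 in footprints. Rfc4, a small loader subunit, had RNA at 64.3, 97.9, 85.0 and 77.2 CPM, highest in the WT leucine-free library. Its WT leucine ratio was 0.61 (0.54 to 0.68) in RNA and -0.33 (-0.52 to -0.15) in footprints, which were at 148, 118, 144 and 113 CPM and so lower without leucine in both genotypes. Rfc3, another small subunit, had RNA at 27.1, 35.5, 28.2 and 18.9 CPM and footprints at 95.9, 90.3, 91.6 and 52.9 CPM. The KO leucine-free library was lowest in both assays, at a KO leucine ratio in RNA of -0.57 (-0.72 to -0.43), and in footprints of -0.79 (-1.02 to -0.57). Rfc1, the large subunit, had RNA at 181, 165, 124 and 98.2 CPM, lower in both KO libraries, and footprints at 231, 204, 181 and 185 CPM. Rfc5 and Rfc2 had no footprint ratio past 1.5-fold in any comparison. Pcna itself was higher in RNA without leucine in both genotypes, 0.28 in WT and 0.40 in KO, with footprint ratios of 0.16 and -0.07 whose intervals included 0. Per kb of exon, Rfc4 was the most abundant loader subunit in all 8 libraries, Rfc3 the least in RNA and Rfc5 the least in footprints. The footprint order per kb of coding sequence was not determined.

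Of the genes that act on single-stranded DNA and Okazaki fragments, Lig1, the ligase that seals the nicks, had the largest WT minus KO difference in footprints. Its footprints were at 203, 228, 195 and 115 CPM, 3 libraries close together and the KO leucine-free one apart, on RNA at 71.3, 59.7, 47.6 and 41.9 CPM. The footprint ratio was 0.16 (0.02 to 0.30) in WT and -0.76 (-0.92 to -0.61) in KO, a difference of 0.93 (0.72 to 1.13). Rpa1 and Rpa2, subunits of the single-strand binding protein RPA, had like profiles: RNA was higher in WT (0.23 and 0.38) and lower in KO (-0.16 and -0.39) without leucine, and the footprint ratios were -0.12 and -0.25 in WT and -0.35 and -0.50 in KO. Rpa2 had 42.6, 55.5, 56.8 and 43.3 CPM of RNA and 129, 108, 129 and 91.4 CPM of footprints. Per kb of exon, their footprints were close in WT replete cells (42.1 and 43.1 CPM per kb), and levels per kb of coding sequence were not determined. Fen1, the flap nuclease, had 7.31, 9.23, 13.5 and 10.6 CPM of RNA and 16.9, 15.9, 14.2 and 21.8 CPM of footprints, with the KO leucine-free library highest in footprints, at a KO leucine ratio of 0.62 (0.19 to 1.05). Most of its exon is shared with Tmem258 and Gm10143.

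In deoxynucleotide supply, the ribonucleotide reductase subunits had more RNA and fewer footprints without leucine in KO cells. Rrm1, the large subunit, had RNA ratios of 0.27 in WT and 0.17 in KO and footprint ratios of 0.01 and -0.36. Rrm2, the small subunit, had 0.11 and 0.18 in RNA and -0.17 and -0.49 in footprints. Rrm2 stood above Rrm1 per kb of exon in all 8 libraries, by 1.51-fold to 1.78-fold. Their exonic lengths were 2771 and 11012 bases. Exonic length includes untranslated parts that footprints hardly cover, so the footprint order per kb of coding sequence was not determined. Tk1, the salvage thymidine kinase, was higher in KO cells without leucine in RNA (0.41) and footprints (0.23). Tyms, thymidylate synthase, had footprint intervals that included 0 in both genotypes (-0.11 and -0.13).

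Several members had leucine ratios of opposite sign in the genotypes. In RNA-seq 9 members (24.3%) were higher without leucine in WT and lower in KO, both intervals excluding 0: Mcm4, Gins4, Pola1, Rfc3, Rfc4, Rfc5, Rpa1, Rpa2 and Fen1. Over all measured genes the share was 7.68%, and no member showed the reverse, which 7.44% of all genes did. In footprints 4 members (10.8%) were higher in WT and lower in KO, Mcm2, Cdc6, Pola2 and Lig1, against 3.17% of all genes, and none the reverse. The shares given here for opposite or same signs were not determined for genes with like counts. Intervals of such genes excluded 0 more often, so the gaps to all genes may be overstated. Other members had the same sign in both genotypes: 10 were higher in RNA in both (Mcm2, Mcm6, Orc6, Cdc6, Cdt1, Prim1, Pcna, Rrm1, Rrm2 and Tk1, 13.2% of all genes), 3 were lower in RNA in both (Gins2, Rfc1 and Lig1, 12.5%), 4 were lower in footprints in both (Orc6, Rfc4, Rpa2 and Rrm2, 5.41%), and 2 were higher there in both (Cdt1 and Mcm10, 4.29%). Within KO cells 9 members were lower in both assays, Mcm4, Gins2, Pola1, Prim2, Rfc3, Rfc4, Rpa1, Rpa2 and Lig1, where 7.72% of genes measured in both were, and 3 were higher in both, Cdt1, Mcm10 and Tk1 (7.34%).

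Between the genotypes, the members' medians stood near 0 in replete medium and below 0 in KO cells without leucine. The median KO over WT ratio was 0.00 in RNA and -0.04 in footprints in replete medium, where only Fen1 (RNA, higher, 10.9% of all genes) and Pola1 (footprints, lower, 4.61%) passed the 1.5-fold rule. In leucine-free medium the medians were -0.14 in RNA and -0.28 in footprints. In RNA 25 of 37 were below 0, 23 with an interval below it (37.3% of all genes, 41.2% of those with like counts). By the 1.5-fold rule 5 passed as lower: Pola1, Prim2, Pole, Rfc1 and Rfc3 (9.06% of all genes). In footprints 31 of 37 were below 0, where 56.9% of genes with like counts were. For 24 the interval lay below 0 (24.2% of all genes, 34.2% of those with like counts) and for none above it (22.6% and 23.7%). By the 1.5-fold rule 6 passed as lower: Gins2, Pola1, Prim1, Pole, Rfc3 and Lig1 (9.2% of all genes). These comparisons and the leucine comparisons share libraries and do not support each other. Summed duct marker RNA was 499 CPM in KO against 248 in WT replete cells and 1122 against 337 CPM without leucine, and its part in these ratios was not tested.

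**Figure D4:**
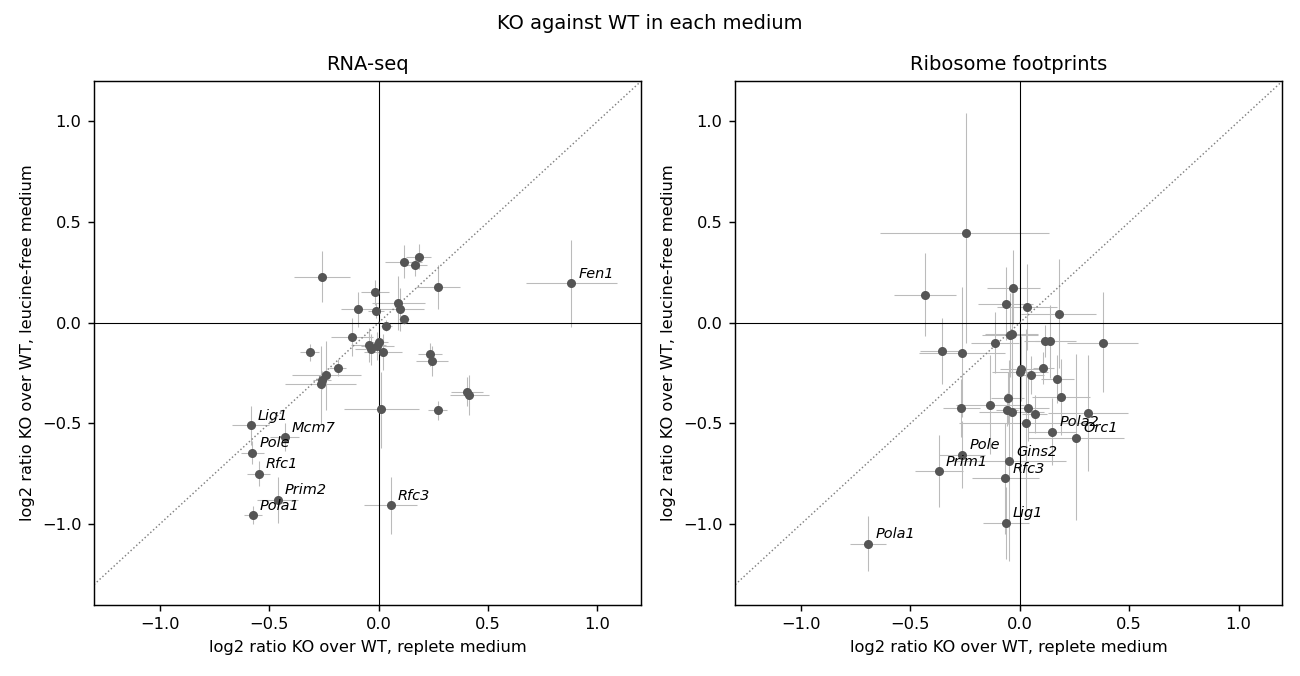
Log2 ratio of KO over WT for each of the 37 genes in replete (x axis) and leucine-free medium (y axis), in RNA-seq (left) and footprints (right), with 95% counting intervals in grey and a dotted line of equal ratios; genes beyond 0.5 on either axis are named. In footprints most points lie near 0 on the x axis (median -0.04) and below 0 on the y axis (31 of 37), with Pola1 lowest on both axes.

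Pola1, the catalytic subunit of polymerase alpha, and Pole, that of polymerase epsilon, were the members lower in KO in both media and both assays with every interval below 0, as 9.37% of genes measured in both assays were. Pola1 (ENSMUSG00000006678, chrX:93304767-93632155, minus strand, GRCm38) had RNA at 295, 338, 198 and 174 CPM and footprints at 423, 399, 261 and 187 CPM. Both KO libraries were thus below both WT libraries in each assay. The KO over WT ratios were -0.57 (-0.62 to -0.53) and -0.96 in RNA and -0.69 (-0.78 to -0.61) and -1.10 (-1.23 to -0.96) in footprints, replete then leucine-free, the last of them the only value past the 2-fold rule (2.34% of all genes lower). Pola1 is the only X-linked member. Measured X-linked genes were lower in KO cells as a set, with median RNA ratios of -0.43 and -0.45 over 346 genes and footprint ratios of -0.51 and -0.60 over 295 genes, while the medians of the 19 autosomes lay between -0.29 and 0.12. The 11 other genes measured in RNA within 2 Mb of Pola1 had medians of -0.41 and -0.46. Whether the Pola1 ratio shares an origin with those of its chromosome was not tested. Pole (chr5:110286306-110337474, plus strand) had RNA at 175, 180, 117 and 115 CPM and footprints at 220, 230, 184 and 146 CPM, and 32 genes within 2 Mb of it had RNA medians of -0.31 and -0.37. Prim2 (chr1:33453810-33669795, minus strand), at -0.46 and -0.88 in RNA, had 10 such neighbours with medians of 0.01 and 0.18. Lig1 had 17 such neighbours in RNA, with medians of -0.42 and -0.45, and 10 in footprints, with medians of -0.37 and -0.72. Rfc1 had 19 in RNA, with medians of -0.18 and -0.25. Chromosome 5 holds 7 of the members (Mcm7, Pole, Rfc1, Rfc2, Rfc3, Rfc5 and Tyms), and its measured genes had medians of -0.20 and -0.17 in RNA and -0.16 and -0.15 in footprints. The part of these regional differences in the members' ratios was not tested.

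Translation efficiency (TE) is the footprint level of a gene over its RNA level, both in CPM. Footprints hardly cover the untranslated parts of exons and RNA reads do, so TE levels of different genes also depend on coding share. That share was not analysed here, so the ranks of TE levels between genes are a description only. The members' TE was above that of most genes, with a median of 1.93, 1.86, 1.98 and 1.68 in the 4 conditions against 1.03, 1.02, 1.03 and 1.00 for all genes measured in both assays. In the first 3 conditions 35 of 37 stood above the median of all genes, and in KO leucine-free cells 31 did. Orc6 and Gins4 had the highest values (7.13 for Orc6 in WT replete cells, 7.05 for Gins4 in KO leucine-free cells), and Orc2 (0.49 to 0.68) and Rfc5 (0.62 to 0.88) the lowest. The leucine ratio of TE had a median of -0.23 over the members in KO cells (-0.02 over all genes), with 23 intervals below 0 (26.1% of all genes), and of -0.09 in WT cells (-0.01), with 14 below 0 (23.2%). Of 4121 genes with like counts, 36.3% had an interval below 0 in KO and 34.9% in WT, with a median of -0.07 in each. By the 1.5-fold rule 5 members were lower in KO, Orc1, Orc6, Cdc6, Prim1 and Rrm2 (7.99%), with Fen1 higher (7.86%), and 2 were lower in WT, Rfc4 and Rpa2 (7.98%). In KO over WT, Fen1 passed in replete medium as lower (4.07%), at -1.13 (-1.55 to -0.70), beyond 2-fold (0.802%), and in leucine-free medium Orc1, Pola2 and Prim1 passed as lower (9.41%) and Rfc1 as higher (11.5%). Of those in leucine-free medium Prim1 had the lowest ratio, -0.89 (-1.07 to -0.70), with a TE of 1.86 in WT and 1.00 in KO leucine-free cells. In the WT minus KO difference 7 members passed as higher (10.3%) and 3 as lower (11.5%). Beyond 2-fold were Lig1 at 1.00 (0.76 to 1.24; 3.47% of all genes higher) and Fen1 at -1.37 (-2.09 to -0.65; 4.34% lower).

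Genes that work beside the members were read from 4 further lists. Other replication proteins, such as accessory helicases, loaders and checkpoint factors (45 of 46 measured in footprints), had a median footprint ratio without leucine of -0.07 in KO and 0.03 in WT, with 28 of 45 below 0 in KO. In this list Dscc1, part of an alternative clamp loader, was the gene past 2-fold in KO RNA, at -1.11 (-1.53 to -0.72; 1.4% of all genes lower), and Chtf8, its partner, in WT RNA, at -1.21 (-1.79 to -0.67; 0.869%). Other genes of deoxynucleotide supply had a median of -0.18 in KO footprints, with 11 of 13 below 0, and of -0.14 in WT, with 10 of 13 below 0. Genes of purine and pyrimidine synthesis had -0.21 in KO, with 18 of 20 below 0, and -0.10 in WT, with 13 of 20 below 0. Over all genes these medians were -0.004 in KO and 0.008 in WT. No gene of either list passed the 2-fold rule there, which 2.09% (KO) and 1.46% (WT) of all genes did. Regulators of the G1 to S transition had a KO footprint median of 0.08, with 15 of 31 below 0. Among them Cdkn1a, which encodes the cyclin-dependent kinase inhibitor p21, passed the 2-fold rule in KO cells without leucine, at 1.48 (1.28 to 1.69) in RNA (1.77% of all genes higher) and 1.01 (0.69 to 1.34) in footprints (1.53%). Its WT ratios were 0.49 (0.29 to 0.69) and 0.09 (-0.32 to 0.47). E2f1, E2f4 and Tfdp2, which encode E2F factors and a dimer partner, had KO over WT footprint ratios in leucine-free medium of 1.08, 1.30 and 1.23 (4.89% of all genes higher by 2-fold). Genes of these lists were named only for passing the 2-fold rule or standing at an end of their list. The other listed E2F and partner genes (E2f2, E2f3, E2f5 to E2f8 and Tfdp1) are not described here, so no change of the family is shown.

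The 8 members with an E2F-type motif, whose windows for Mcm5, Mcm6 and Pola1 are printed above, were all below 0 in KO footprints without leucine, from -0.91 to -0.22 with a median of -0.40. The 22 members with a promoter and no such motif in this window had a median of -0.19, with 15 below 0. In WT footprints the medians of these sets were 0.01 and 0.01, and in KO RNA -0.04 and 0.02. The sets are small, were compared after other values were known and share their libraries, and are given with no test.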

How the data were processed

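KRPC-A libraries (RNA-seq and ribosome profiling, 4 each) were lysed with cycloheximide and footprints were made with ribonuclease I, per the labels. The authors deposited raw counts per gene. Per the file headers these were made with featureCounts 1.6.4 on exons of Ensembl release 96, with no option for strand, multiply mapped or multi-gene reads. The submitters' processing notes name cutadapt, STAR and GRCm38. Symbols came from the supplied tables (55450 of 55536 genes). Counts were scaled by TMM (edgeR 4.0.16, R 4.3.3) over protein-coding genes with a mean count of at least 30. Ratios used a prior count of 0.5 and exact conditional binomial 95% intervals, with Wald intervals for TE and WT minus KO, and Poisson intervals for CPM. Scripts were tested on simulated data. Python 3.11.15, pandas 2.3.3, scipy 1.17.1 and matplotlib 3.10.9 were used.

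The members and lists were chosen with earlier results of these data known. All members are described by role; values per library are given for those past 1.5-fold in a pairwise RNA-seq or footprint comparison or at either end of one, and for 3 more that differed between genotypes. Levels per kb of coding sequence and the leucine content of the proteins were planned but are not analysed here, and exonic length was used. The alternatives were scaling by total counts, DESeq2 1.42.0 size factors or TMM over all genes, other count minimums, a prior count of 5 and removal of a length trend.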

Additional observations from a re-analysis of the deposited data

Results flagged for a closer look

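The WT and KO leucine responses of 8 members went in opposite directions with both intervals off 0 and differed by at least 1.5-fold. Each rests on 4 single libraries, or 8 for TE, so the difference itself was not tested against the spread between cultures. The share of all measured genes that meet this rule was not determined. Without the 1.5-fold rule, 7.68% of all measured genes in RNA-seq and 3.17% in footprints were higher in WT and lower in KO. The members' higher counts also make their intervals exclude 0 more easily. The WT minus KO differences in RNA-seq were 0.70 for Mcm4, 0.96 for Rfc3, 0.74 for Rfc4, 0.77 for Rpa2 and 0.69 for Fen1. In footprints they were 0.76 for Cdc6, 0.69 for Pola2 and 0.93 for Lig1. In TE they were 0.83 for Pola2 and 1.00 for Lig1, whose RNA differences were -0.15 and -0.08. The RNA and footprint sets share no gene. Of the exon bases of Fen1, 84.2% are shared with other genes.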

How the results depend on the processing

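No paired analysis was possible because each group holds 1 library, and for the same reason no library could be left out. Each median was recomputed under 11 other settings, 3 of them chosen after seeing the data. Those left out the 3 members sharing over 20% of exon, all members sharing any exon (23 kept), or X-linked Pola1. All medians stayed within the members' typical counting interval, such as -0.30 to 0.07 for WT TE. That is the width of a single gene's interval, which is wide for a median over many genes. Staying within it therefore does not show that the medians are stable. With TMM over all genes the WT footprint median moved from 0.02 to -0.12 (all genes 0.01 to -0.13) and still counted as within. The KO leucine median in footprints ran from -0.31 to -0.22, the WT one from -0.12 to 0.04, so its sign is not fixed, the KO over WT median without leucine from -0.32 to -0.21, the WT minus KO median from 0.22 to 0.37, the KO TE median from -0.27 to -0.15, the WT TE median from -0.26 to -0.07 (lowest with TMM over all genes) and the WT minus KO TE median from 0.07 to 0.21. Gins4 changed sign in WT RNA, to -0.053, with the length trend removed. Counts of members past 1.5-fold moved as follows: WT RNA 1 to 0 with the length trend removed (Rfc4 at 0.40), KO RNA 0 to 1 by total counts or with the trend removed (Rfc3), KO over WT replete RNA 1 to 4 with TMM over all genes and 2 with DESeq2 or the trend removed, WT TE 2 to 5 with TMM over all genes and 1 with the trend removed, and KO over WT replete TE 1 to 0 at a mean of 100 counts, which drops Fen1. Counts past 2-fold moved from 0 to 1 in KO over WT leucine-free RNA and WT TE (TMM over all genes) and in KO TE (total counts, trend removed), from 1 to 0 in KO over WT replete TE (mean of 100), and from 2 to 1 in the WT minus KO difference of TE (total counts, TMM over all genes, mean of 100). The other 223 of 240 counts stayed within 1.5 times. Footprint levels per coding kb were not run. The shallowest library, WT leucine-free footprints, limits what its ratios can resolve.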
